A study of Homo sapiens with 6 samples.

Results

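The histone genes of LNCaP prostate cancer cells were compared between the parental line and an enzalutamide-resistant derivative, LNCaP-enzaR. Members were the protein-coding genes whose symbols name a replication-dependent histone of the H1, H2A, H2B, H3 or H4 families or a replacement histone, among them H1-10, H2AJ, H2AX, H2AZ1, H2AZ2, H3-3A and H3-3B. These were 64 of the 35554 genes in the table, 56 of them replication-dependent and 8 replacement. LNCaP is an established line from a metastatic prostate carcinoma, and enzalutamide is a drug that blocks the androgen receptor. The resistant line was derived from parental LNCaP by continuous exposure to the drug and kept on a lower concentration of it afterwards. It is a single derivative, and whether cells still received enzalutamide when harvested is not given in the sources used here. By the labels, RNA came from 3 flasks of each line, harvested before confluence (the study's general sequencing methods name multi-well plates), and the labels name no other treatment or alteration in either line. Those general methods also describe starving cells of serum and calcium for some hours before buffer or ligand was added. The sources used here do not say whether this applied to these libraries. The labels call the libraries biological replicates, and whether the cultures of a line were grown apart from each other is not given, so the spread between them may be partly technical.

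Replication-dependent histone genes lie in clusters and supply the bulk of nucleosome proteins while DNA is copied. Their mRNAs normally end just after a conserved stem-loop, bound by the stem-loop binding protein SLBP, and carry no poly(A) tail. Replacement histones are encoded by single genes elsewhere, are made throughout the cell cycle and have polyadenylated mRNAs. H2AX is known to yield a stem-loop mRNA as well, as given below. The libraries were made from poly(A)-selected RNA, so a count of a replication-dependent gene, or of H2AX, reflects whichever part of its RNA was retained. The amount of its RNA and the polyadenylated part of it cannot be told apart here. Likewise, in bulk RNA, fewer cells in S phase and less RNA per cell cannot be told apart.

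The stem-loop sequences are shown because they separate both classes. A match to the histone stem-loop consensus within 150 bases after the stop codon was present in 56 of 56 replication-dependent genes, in 1 of 8 replacement genes and in 16 of 19886 other protein-coding genes (0.0805%). The elements lay 23 to 68 bases after the stop codon and took 7 distinct forms. The most frequent form was found in 34 genes, and all 11 H4 genes had a different first arm from the 45 genes of the other families. Capitals mark the paired arms of the stem and lower case the loop of 4 bases, 5′ to 3′ on the strand of the gene, in GRCh38.
H2BC21, chr1:149886188-149886203 (minus strand): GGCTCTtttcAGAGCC
H2BC12, chr6:27146366-27146381 (minus strand): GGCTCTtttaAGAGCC
H3C6, chr6:26225596-26225611 (plus strand): GGCTCTtctcAGAGCC
H4C8, chr6:26285131-26285146 (minus strand): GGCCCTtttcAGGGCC
H2AX, chr11:119094898-119094913 (minus strand): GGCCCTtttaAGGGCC
H2AX, the replacement gene with a stem-loop, has the arms of the H4 form. It is known to yield both a stem-loop mRNA and a longer polyadenylated one, and its annotated gene extended 1044 bases past the stem-loop.

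The promoters of 2 genes are shown, that of the replacement gene with the lowest fold change and that of the replication-dependent gene with the highest level in LNCaP-enzaR. Each is the RefSeq window from 250 bases before to 50 bases after the start, in GRCh38.p14, and 58 of the 64 members had such an entry. Capitals mark the octamer ATTTGCAT, the CCAAT box CCAAT and the TATA box TATAAA on either strand.
H2AJ, chr12:14774155-14774454 (plus strand): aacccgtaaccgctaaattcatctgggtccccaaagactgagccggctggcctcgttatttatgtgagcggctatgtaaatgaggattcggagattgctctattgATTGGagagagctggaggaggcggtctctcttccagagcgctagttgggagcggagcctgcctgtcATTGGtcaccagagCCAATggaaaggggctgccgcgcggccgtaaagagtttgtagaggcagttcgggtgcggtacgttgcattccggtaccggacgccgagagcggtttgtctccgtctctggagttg
H2BC21, chr1:149886633-149886932 (minus strand): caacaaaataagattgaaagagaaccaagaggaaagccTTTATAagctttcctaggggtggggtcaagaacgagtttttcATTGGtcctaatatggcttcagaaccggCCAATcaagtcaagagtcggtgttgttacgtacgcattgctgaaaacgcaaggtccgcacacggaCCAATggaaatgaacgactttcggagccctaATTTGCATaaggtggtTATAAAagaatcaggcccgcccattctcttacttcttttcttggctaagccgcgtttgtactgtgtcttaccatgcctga
The H2AJ window held 3 CCAAT boxes, no octamer and no TATA box, whereas that of H2BC21 held 3 CCAAT boxes, 1 octamer and 2 TATA boxes. The octamer was present in 11 of 14 replication-dependent H2B promoters (78.6%), in 10 of 13 replication-dependent H2A promoters (76.9%), in 1 of 7 replacement promoters and in 1.71% of the 35051 other promoters. Neighboring H2A and H2B genes share part of their windows, so an octamer can be counted for both. CCAAT was present in 84.3% of replication-dependent and 85.7% of replacement promoters against 34.5% of the others, and TATAAA in 68.6% and 57.1% against 11.4%. A match describes the letters in the window, and no factor binding was measured.

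Libraries held 77759122 to 98616465 counts. Expression is given as counts per 1000000 (CPM) after TMM scaling, as mean ± SD of 3 libraries per line, and differences as the log2 of the fold change from parental to LNCaP-enzaR, with standard errors (SE). LNCaP-enzaR library 1 stood apart from libraries 2 and 3, with a chi-square per degree of freedom over genes of 40.8 and 32.4 against 7.5 between those, and 5.9 to 9.92 between parental libraries. Without it, 19 replication-dependent genes were called higher and 10 lower, and 4 replacement genes lower. Mitochondrial genes took 6.72% to 7.06% of counts in parental libraries and 14.7% to 15.5% in LNCaP-enzaR, and without them the counts of histone genes called, below, did not move. The 9 markers of luminal prostate cells were detected in every library and summed to 5150 to 5272 CPM in parental cells and 4403 to 4562 CPM in LNCaP-enzaR. Markers of other cell types summed to at most 17.9 CPM (fibroblast, with COL1A2 listed at 0), 6.1 CPM (endothelial), 1.71 CPM (basal) and 0.216 CPM (leukocyte) in any library.

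All 8 replacement genes had lower levels in every LNCaP-enzaR library than in any parental library, while the replication-dependent genes went both ways. A gene was called higher or lower at a Benjamini-Hochberg adjusted p of at most 0.05 in edgeR's quasi-likelihood test and a fold change of at least 1.5. Over all 19711 genes tested, 42.7% were called, 23.3% higher and 19.5% lower, and the CPM ranges of the lines did not overlap for 70.6%. Of the 64 histone genes, 50 passed the filter on low counts, and 18 of them were called higher, 14 lower and 18 neither. The replication-dependent genes accounted for 18 higher, 10 lower and 14 neither of 42, with a median log2 fold change of 0.57, which ranged from 0.28 (without parental library 3, and 0.38 without parental library 1) to 0.71 when each library was left out. The replacement genes accounted for 0 higher, 4 lower and 4 neither of 8, with a median of -0.67. The median of all genes tested was 0.01. The genes were selected on their symbols, but the family was chosen by the fold changes of this same contrast, so these values are a description, and no test is given for its members.

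The largest fold change among the replacement genes was that of H2AJ (ENSG00000246705.4, chr12:14774383-14778002), which encodes a mammalian H2A variant known to accumulate in senescent cells with DNA damage. Its level was 116, 122 and 127 CPM in parental libraries 1 to 3, and 1.72, 1.40 and 1.41 CPM in LNCaP-enzaR libraries 1 to 3. Every LNCaP-enzaR library thus held a small residue of the parental level, which rested on 124 to 148 counts and was well above the 3 counts taken as the floor. The mean fell from 122 ± 5.49 to 1.51 ± 0.178 CPM, so that its log2 fold change was -6.34 (SE 0.0906), or 80.9-fold lower. Across the alternatives tried, its log2 fold change ranged from -6.43 to -6.24. It ranked 73 from the lowest log2 fold change of all 19711 genes, and 16 among the 10769 genes with a mean of at least 5 CPM.

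H2AX, whose protein is phosphorylated at DNA double-strand breaks, was at 418, 404 and 430 CPM in parental libraries and at 119, 100 and 103 CPM in LNCaP-enzaR libraries. The difference was -1.96 (SE 0.0682), 3.88-fold lower. H2AZ1 encodes H2A.Z, a variant placed around promoters by exchange factors. It was at 587, 593 and 615 CPM against 188, 184 and 180 CPM, a log2 fold change of -1.70 (SE 0.0514), 3.26-fold lower. Another gene overlapped 9.82% of the exonic bases of H2AZ1, which adds some uncertainty to its counts. H2AZ2, which encodes a nearly identical H2A.Z protein, was at 230, 229 and 225 CPM against 169, 181 and 178 CPM. Its log2 fold change of -0.38 (SE 0.0517) did not reach the limit of fold.

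The linker histone gene H1-10 was at 220, 226 and 230 CPM in parental libraries and at 125, 131 and 126 CPM in LNCaP-enzaR libraries, with a log2 fold change of -0.82 (SE 0.0518). In its exons, 22.8% of bases overlapped another gene, so its counts are uncertain. H3-3A and H3-3B both encode H3.3, the H3 form deposited outside replication. H3-3A was at 285, 295 and 300 CPM against 222, 215 and 212 CPM, a log2 fold change of -0.44. Of its 100-base stretches, 13.2% also occurred in another gene, so its counts are uncertain too. H3-3B was at 627, 624 and 653 CPM against 450, 438 and 439 CPM, a log2 fold change of -0.52. For H3-3A and H3-3B the lines did not overlap, and the differences were under the limit of fold. With no minimum fold, 8 of the 8 replacement genes counted as lower, as did 6467 of the 19711 genes tested, while 6607 counted as higher.

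**Figure D1:**
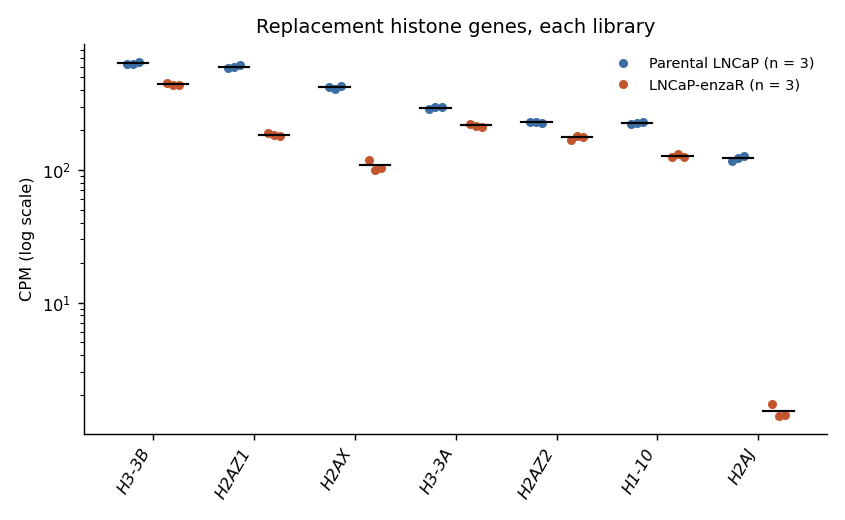
CPM of 7 replacement histone genes (log axis) in each library, with bars at the line means (n = 3 per line). All LNCaP-enzaR points lie below the parental points of the same gene, by 80.9-fold on average for H2AJ and by 1.30-fold for H2AZ2.

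Among replication-dependent genes the H2B family had the most calls. Of 12 H2B genes tested, 8 were called higher (66.7%) and 2 lower (16.7%), with a median log2 fold change of 1.10. The shares over all genes tested were 23.3% and 19.5%. H2BC21 was at 91.5, 88.5 and 92.4 CPM in parental libraries and at 345, 347 and 330 CPM in LNCaP-enzaR libraries, a log2 fold change of 1.91 (SE 0.053). It passed H1-2 and H2BC12 to become the replication-dependent gene with the highest CPM in LNCaP-enzaR. H2BC12 was at 93.9, 93.1 and 113 CPM against 250, 166 and 180 CPM, a log2 fold change of 0.99 (SE 0.123). LNCaP-enzaR library 1 stood above the other two, and without it the log2 fold change was 0.80, still called higher. H2BC18 had the highest log2 fold change of the family, 2.35 (SE 0.108), from 3.65, 3.44 and 2.72 CPM to 15.8, 17.1 and 17.2 CPM. H2BC13 went from 1.89 ± 0.205 to 7.30 ± 0.955 CPM, with a log2 fold change of 1.95. H2BC5 rose from 18.5 ± 1.68 to 43.1 ± 4.96 CPM and H2BC4 from 10.1 ± 0.582 to 26.2 ± 0.967 CPM, with log2 fold changes of 1.22 and 1.38. H2BC8 went the other way, from 7.40, 7.28 and 7.08 CPM to 3.37, 3.46 and 2.83 CPM, a log2 fold change of -1.17 (SE 0.111). H2BC11 (-0.27) and H2BC15 (0.51) were not past the limits. In H2BC12, H2BC18 and H2BC4, 22.5%, 34.7% and 23.9% of 100-base stretches also occurred in another gene, so their counts are uncertain.

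The 11 H2A genes tested were split into 3 higher (27.3%), 4 lower (36.4%) and 4 neither, with a median of 0.01. The share higher was near the 23.3% of all genes tested, of which 19.5% were lower. H2AC6 was at 49.3, 49.8 and 47.5 CPM in parental libraries and at 149, 144 and 134 CPM in LNCaP-enzaR libraries, a log2 fold change of 1.54 (SE 0.0596). It held most of the replication-dependent H2A counts in both lines. The other genes called higher, H2AC18 and H2AC19, are near-identical copies at under 2 CPM whose reads cannot be assigned with certainty. H2AC16 had the lowest value of the family, -2.65 (SE 0.344), at 0.862 ± 0.136 against 0.137 ± 0.0346 CPM. H2AC11 was at 14.6 ± 1.54 and 14.7 ± 0.786 CPM, a log2 fold change of 0.01 (SE 0.0887), and its ranges overlapped.

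Of 8 H4 genes tested, 4 were called higher (50%) and 1 lower (12.5%), with a median of 0.90, against 23.3% and 19.5% of all genes tested. H4C8 was at 24.5, 24.5 and 23.1 CPM against 70.3, 72.2 and 69.5 CPM, a log2 fold change of 1.55 (SE 0.0607), and H4C9 rose from 20.9 ± 0.979 to 38.8 ± 1.34 CPM (0.90). In H4C8, 13.3% of exonic bases overlapped another gene. Of 6 H3 genes, 2 were higher and 2 lower (33.3% each). H3C6 was at 4.93, 5.12 and 4.47 CPM against 14.5, 15.6 and 14.7 CPM, a log2 fold change of 1.62 (SE 0.0894). H3C10, the H3 gene with the most counts, went from 27.0 ± 0.515 to 32.0 ± 1.15 CPM, and its log2 fold change of 0.24 was under the limit. H3C1 held 44, 84 and 36 counts in parental libraries and 1, 1 and 0 counts in LNCaP-enzaR libraries. Against 3 counts per library, it was at least 18.8-fold lower.

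Linker histone H1-2 was the most abundant replication-dependent gene in parental cells, at 169, 174 and 191 CPM, and was at 134, 113 and 113 CPM in LNCaP-enzaR. The lines did not overlap, and its log2 fold change of -0.57 (SE 0.0727) was just inside the limit of fold. It passed that limit, on the lower side, without LNCaP-enzaR library 1 (-0.65), without parental library 1 (-0.61) or 2 (-0.59), and with library totals in place of TMM (-0.61). H1-5 held 164, 92 and 81 counts against 30, 6 and 9 counts, a log2 fold change of -2.93 (SE 0.465) that became -3.97 without LNCaP-enzaR library 1. H1-4 was called higher (0.90), at 1.03 ± 0.15 against 1.91 ± 0.173 CPM.

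**Figure D2:**
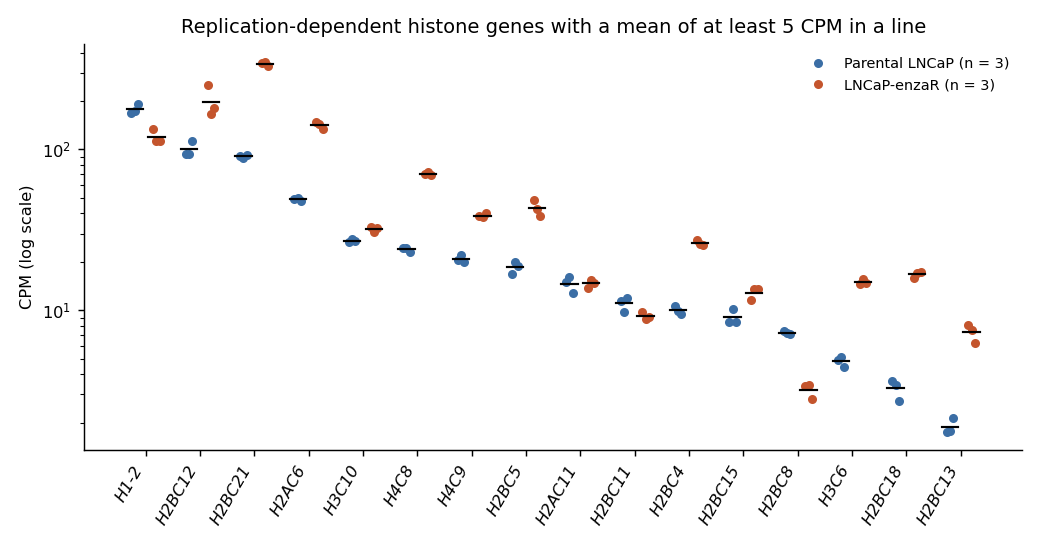
CPM (log axis) of the replication-dependent genes with a mean of at least 5 CPM in either line, in each library, with bars at the line means (n = 3 per line). H2BC21, H2AC6 and H4C8 lie higher in all 3 LNCaP-enzaR libraries, H1-2 and H2BC8 lie lower, and the points of H2AC11 overlap.

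The 14 replication-dependent genes that did not pass the filter were H2AC7, H2AC12, H2AC21, H2BC3, H2BC14, H3C3, H3C4, H3C8, H3C11, H3C14, H3C15, H4C1, H4C4 and H4C12. None of them had more than 23 counts in a library. Without the filter, H3C11 was called lower, with 8, 9 and 2 counts in parental libraries and 0 in each LNCaP-enzaR library, at least 2.13-fold lower against 3 counts per library. For the other 13 a difference was not detectable at this depth. Of all 64 members, 24 had at least 5% of their 100-base stretches in another gene as well, and 11 had at least 5% of their exonic bases within another gene. How reads that map to several places were counted is not given in the sources used here. Among the 26 tested replication-dependent genes with less than 5% shared sequence, 9 were higher (34.6%), 8 lower (30.8%) and 9 neither (median 0.38). Over all genes these shares were 23.3% and 19.5%.

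Annotated ends differed between replication-dependent genes, and calls are given for each kind. In 22 genes the annotation ran more than 100 bases past the stem-loop, and 11 of the 19 tested were higher, 1 was lower and 7 were neither (median 0.91). In the 34 genes that ended within 100 bases of it, 7 of the 23 tested were higher, 9 lower and 7 neither (median -0.29). The shares higher and lower were 57.9% and 5.26% for the longer annotation and 30.4% and 39.1% for the others. Those of all genes tested were 23.3% and 19.5%. Summed over the genes with the longer annotation, CPM went from 297 ± 4.12 to 776 ± 19.8, a ratio of 2.62. Over the other genes the sums were 301 ± 22.9 and 346 ± 59.5 CPM, a ratio of 1.15, and LNCaP-enzaR library 1 (414 CPM) stood above libraries 2 and 3 (305 and 319 CPM). The gain in summed replication-dependent CPM came mostly from genes such as H2BC21, H2AC6 and H4C8, whose annotated ends lay 1729, 14432 and 7522 bases past the stem-loop, with H2BC12 (5 bases) as the main exception. The table gives 1 count per gene, so whether reads lay before or beyond the stem-loop was not tested.

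**Figure D3:**
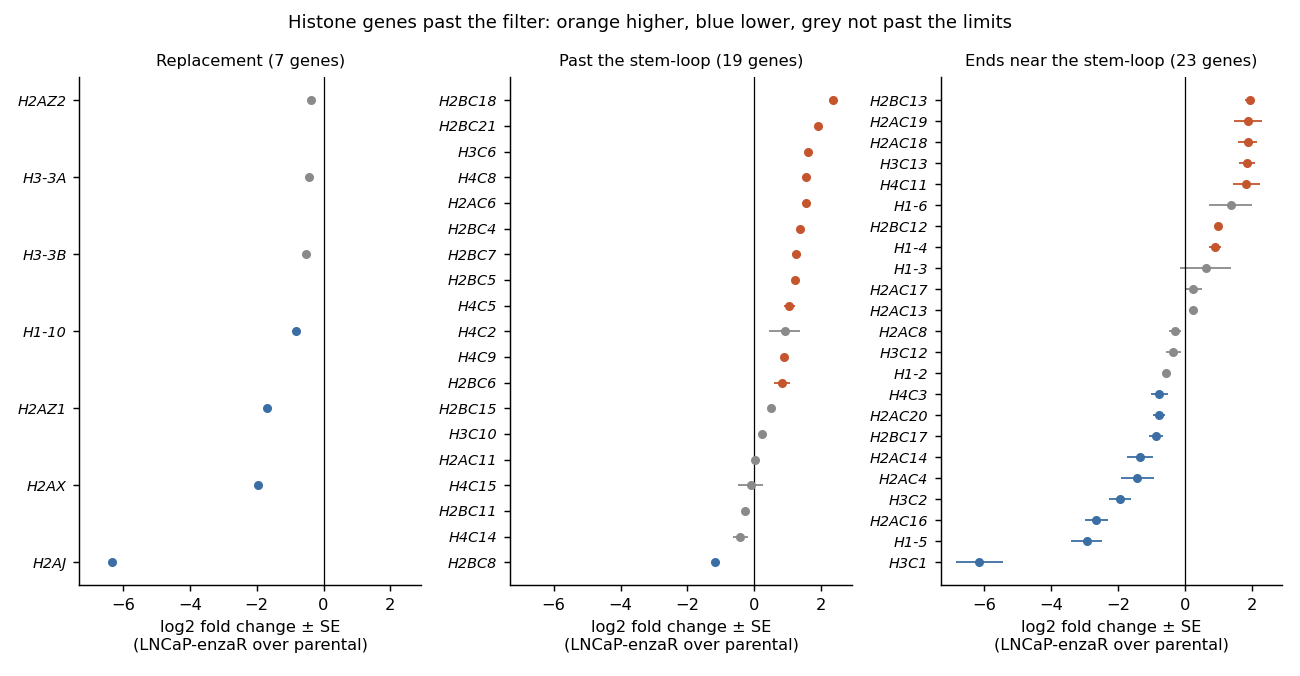
Log2 fold change with SE of tested histone genes, in 3 panels for 7 replacement genes, the replication-dependent genes annotated over 100 bases past the stem-loop and those annotated to end within 100 bases of it (fit on 3 libraries per line). The replacement genes all lie below 0, the longer annotated genes lie mostly above 0 and the others spread to both sides, from -6.15 (a fitted value for H3C1, whose LNCaP-enzaR libraries held at most 1 count) to 1.95.

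Calls are also given by level and by position, as a description. Over all genes tested, 23.3% were called higher and 19.5% lower. Of the 26 replication-dependent genes with a mean of at least 1 CPM, 14 were higher and 4 lower (median 0.86), and of the 16 tested with less, 4 were higher and 6 lower (median 0.07). By position, 5 of 8 genes tested in the chromosome 1 cluster were higher and 1 lower (median 1.87). All of these 8 but H2BC21 had at least 5% of their 100-base stretches in another gene, so their counts are uncertain. In the first block on chromosome 6 these were 9 and 5 of 19 (median 0.90), and in the second block 4 and 4 of 15 (median 0.24). The shares in the second block, 26.7% higher and 26.7% lower, were near those of all genes. In both clusters, 9 pairs of an H2A and an H2B gene start in opposite directions from starts at most 283 bases apart. Both genes were tested in 6 pairs, and in 2 of these the calls were the same. H2AC6 and H2BC4 both rose, and H2AC11 and H2BC11 were both not past the limits. In the other 4 the calls differed, and in H2AC20 and H2BC21, 266 bases apart, they were opposite. H2AC20 fell from 1.90 ± 0.22 to 1.11 ± 0.187 CPM while H2BC21 rose from 90.8 ± 2.03 to 341 ± 9.08 CPM.

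Summed over each class, the replication-dependent genes gave 583, 590 and 620 CPM in parental libraries and 1205, 1089 and 1073 CPM in LNCaP-enzaR libraries, a ratio of 1.88. The replacement genes gave 2708, 2734 and 2801 CPM against 1458, 1433 and 1421 CPM, 1.91-fold lower, and 1.83-fold lower without H2AJ. Both sums separated the lines in every library. The replication-dependent share of all histone counts went from 17.9% ± 0.22 to 43.8% ± 1.24, and summed CPM of both classes from 3346 ± 67.5 to 2559 ± 90.4. Few genes made up these sums. The 4 replication-dependent genes with the highest CPM (H2BC21, H2BC12, H1-2 and H2AC6) held 69.9% ± 1.51 of the replication-dependent total in parental cells and 71.4% ± 1.27 of it in LNCaP-enzaR. Within that class the H2B share went from 42.9% to 59.2% and the H1 share from 30.2% to 10.9%, and the summed CPM of H2B went from 256 ± 12.5 to 665 ± 52.3.

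**Figure D4:**
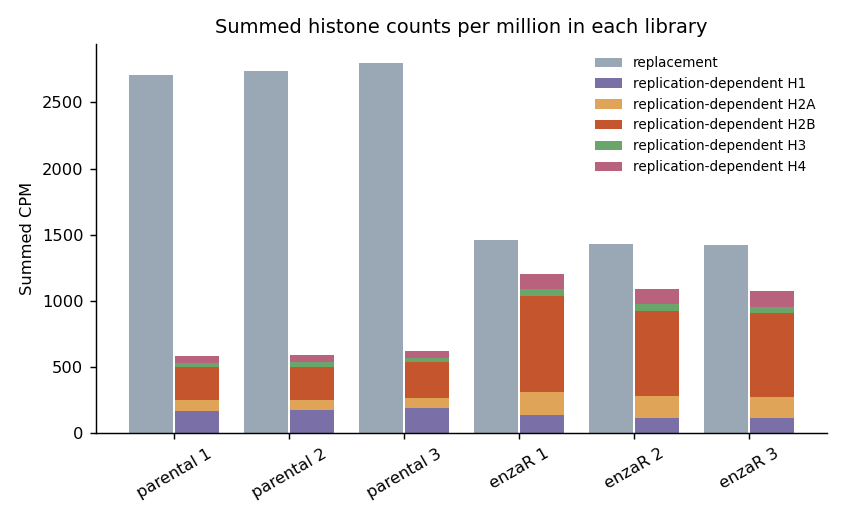
Summed CPM of the 8 replacement genes (grey) and of the 56 replication-dependent genes, stacked by family, in each of the 6 libraries. The replacement sums are 2708 to 2801 CPM in parental and 1421 to 1458 CPM in LNCaP-enzaR libraries, and the replication-dependent sums are 583 to 620 and 1073 to 1205 CPM, with most of the difference in H2B.

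Levels of different genes were compared per kilobase of exon, for the 41 members whose coordinates in the annotation that gave the lengths were those of the table. H2BC21, H4C9 and H2AX were not among these, so they have no place in the orders below. On this scale the leading genes in parental cells were H2AZ1 at a mean of 264 CPM per kb (258 to 271), H1-2 at 244 (231 to 261), H2BC12 at 202 (188 to 229) and H1-10 at 149 (145 to 151). The ranges of H2AZ1 and H1-2 overlapped, and that of H2BC12 stayed below that of H1-2. In LNCaP-enzaR the order was H2BC12 at 401 CPM per kb (334 to 504), H1-2 at 164 (154 to 183), H2AC6 at 85.4 (80.5 to 89.4) and H1-10 at 84.1 (82.7 to 86.5), and the ranges of H2AC6 and H1-10 overlapped. The scale understates genes whose annotation holds long ends that are little used.

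Genes around H2AJ, the member with the lowest log2 fold change, were examined after its values were seen. H2AJ lies outside the histone clusters, as do the other replacement genes. The adjusted p values of its neighbors are therefore given as a description. The window of 500 kb on either side held 17 genes with H2AJ, of which 7 were tested. Of the 6 besides H2AJ, 0 were called higher, 4 lower and 2 neither, with a median log2 fold change of -1.04. Across all genes tested, 23.3% were higher and 19.5% lower. H4-16, an H4 gene outside the symbols used here, has its lower end at -6384 bases relative to that of H2AJ. It held 160, 211 and 176 counts in parental libraries and 2, 1 and 9 counts in LNCaP-enzaR libraries, and its log2 fold change was -5.54 (SE 0.402, edgeR quasi-likelihood adjusted p = 1.92e-08). The adjacent long noncoding RNA gene RP11-174G6.5 fell from 2.73 ± 0.536 to 0.0478 ± 0.00909 CPM (-5.81, edgeR adjusted p = 4.8e-10). On the other side, WBP11, which encodes a splicing factor, fell from 138 ± 3.26 to 63.0 ± 0.944 CPM (-1.13, edgeR adjusted p = 2e-10), and C12orf60 had a log2 fold change of -0.95 (edgeR adjusted p = 0.000194). The 2 genes farthest away, ATF7IP at 0.01 and ARHGDIB at 0.16, were not past the limits. ARHGDIB held 8, 14 and 10 counts in parental libraries and 26, 3 and 8 in LNCaP-enzaR libraries, so its value (SE 0.705) is uncertain. H2AJ, H4-16 and RP11-174G6.5, the 3 with the lowest values, are next to each other in the window. DNA copy number and methylation of the region were not analyzed here.

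**Figure D5:**
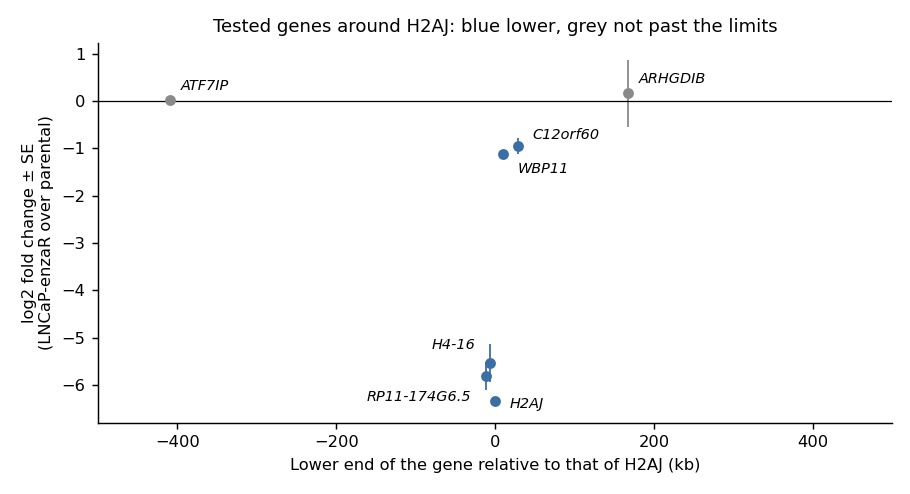
Log2 fold change with SE of H2AJ and the 6 other tested genes within 500 kb of it, by the position of the lower end of each gene relative to that of H2AJ (fit on 3 libraries per line). H2AJ, H4-16 and RP11-174G6.5 lie together between -6.34 and -5.54, while WBP11 and C12orf60 lie near -1. The farthest genes lie near 0, ARHGDIB with an SE of 0.705.

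Genes that act on histones were described from lists. These were written with earlier results of these data known, so the adjusted p values of listed genes are given as a description. For comparison, 23.3% of all genes tested were called higher and 19.5% lower. Of 28 genes for histone gene transcription and mRNA 3′ end processing, 1 was called higher, 9 lower and 18 neither, with a median log2 fold change of -0.45. SLBP, which binds the stem-loop, fell from 121 ± 4.43 to 60 ± 0.773 CPM (-1.01, edgeR adjusted p = 8.9e-10). NPAT, the coactivator of replication-dependent histone genes, fell from 34.8 ± 0.898 to 19.5 ± 1.49 CPM (-0.83, edgeR adjusted p = 1.34e-07). CDK2, the kinase that activates NPAT, had a log2 fold change of -1.48 (edgeR adjusted p = 1.87e-10), and SNRPB, a shared component of small nuclear ribonucleoproteins, of -1.09 (edgeR adjusted p = 4.88e-10). CTIF, a factor in translation of newly made mRNAs, was the gene called higher, from 8.15 ± 0.236 to 28.3 ± 0.597 CPM (1.80, edgeR adjusted p = 3.25e-11).

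Of 29 histone chaperones and exchange factors, 0 were called higher, 11 lower and 18 neither (median -0.51). Among all genes tested, 23.3% were called higher and 19.5% lower. The 3 with the smallest p were HJURP, the chaperone of the centromeric H3 (-2.47, edgeR adjusted p = 1.02e-12), NASP, which holds soluble H3 and H4 (-1.82, edgeR adjusted p = 2.02e-12), and ASF1B, which passes H3 and H4 to the assembly factors (-2.09, edgeR adjusted p = 7.4e-12). With no minimum fold, 24 of these genes were lower and 2 were higher, against 6467 and 6607 of the 19711 genes tested. All 30 genes of an S-phase list, which also holds SLBP, were called lower, with log2 fold changes from -2.55 to -1.01. Among them were UHRF1, which recognizes hemimethylated DNA (-2.55), cyclin A2 gene CCNA2 (-2.35) and the flap endonuclease gene FEN1 (-2.12). The S-phase list was thus lower in the line in which summed replication-dependent counts were higher. The part of either in the other was not tested.

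Histone variants outside the symbols used here were taken from a list. Of 18 listed, 10 were in the table and 7 were tested, with 1 higher, 3 lower and 3 neither. The shares of all genes tested were 23.3% higher and 19.5% lower. CENPA, the centromeric H3, fell from 24.1 ± 1.85 to 6.31 ± 0.302 CPM (-1.93, edgeR adjusted p = 8.78e-11). MACROH2A2 fell from 70.2 ± 3.48 to 26.4 ± 1.12 CPM (-1.41, edgeR adjusted p = 1.43e-10), while MACROH2A1 was at 411 ± 1.65 and 351 ± 10.1 CPM (-0.23), which was under the limit of fold. H4-16, given above, was the third lower gene. The gene called higher was the primate-specific H3Y1, with 8, 2 and 0 counts in parental libraries and 75, 77 and 60 counts in LNCaP-enzaR libraries (4.32, SE 0.588). H2AW, a gene that was in no list and was picked after its values were seen, rose from 26.0 ± 0.536 to 60.6 ± 7.99 CPM (1.22, SE 0.0842). H3Y1, though listed, was likewise named after its values were seen, so no p is given for H2AW or H3Y1.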

How the data were processed

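The deposited table holds raw read counts per gene, not normalized, for 6 libraries. The authors prepared TruSeq mRNA (poly(A)-selected) libraries, sequenced them as paired-end reads, trimmed with Cutadapt 4.5, aligned to GRCh38.p13 (GENCODE 38) with STAR 2.7.11a and counted with featureCounts 2.0.2. Strand and multiple-mapping settings are not given in the sources used here. Coordinates follow the table and count from 1. GENCODE 44, in which 99.8% of the genes were found, gave strands, stop codons and exon lengths. Stem-loops were read from GRCh38.

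Counts were analyzed with edgeR 4.0.16 in R 4.3.3 (filterByExpr, TMM, robust quasi-likelihood F-test, Benjamini-Hochberg adjustment over 19711 genes holding 99.96% of counts), with the limits (adjusted p of 0.05, fold of 1.5) given in the study's methods. DESeq2 1.42.0 was an alternative, beside other scalings, filters and limits, the replicate number as a block and leaving out each library. The floor of 3 counts, 0.0302 to 0.0382 CPM, covers counting error only. In a simulation of this comparison on 19186 genes, 154 of 200 changed genes were recovered, with 6 false calls. Calls in it used the adjusted p of 0.05 without the limit of fold. It changed far fewer genes than were called in the data, so it gives no error rate for the calls above. Fits were not blocked, since same-numbered libraries did not deviate together (correlations of -0.0652, -0.00041 and -0.0507). No 2 libraries were duplicates.

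Members and lists were chosen with earlier results of these data known. A replacement gene that counts and sums include is not reported here. Named were every other replacement gene, replication-dependent genes with a mean of at least 5 CPM in either line, the 3 highest and 3 lowest log2 fold changes among replication-dependent genes, SLBP, NPAT, CENPA, MACROH2A1, MACROH2A2 and the 3 genes of smallest p in each list. Genes of divergent pairs, genes near H2AJ, H1-4, H2AC18, H2AC19, H3Y1 and H2AW were named in addition, after their values were seen.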

Additional observations from a re-analysis of the deposited data

How the results depend on the processing

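Of the 27 named histone genes, 25 kept their call under all 15 alternatives that could be fitted to them. H2AC11, which was never past the limits, was the 1 gene whose log2 fold change took both signs (-0.08 to 0.11). The exceptions in call, H1-2 and H2BC15, stood next to the limit of fold, and H2BC15 passed it with upper-quartile scaling (0.62), without LNCaP-enzaR library 1 (0.59) and without parental library 2 (0.61). Under the minimum of 10 counts in every library, H3C1 and H1-5 could not be fitted. Counts of replication-dependent genes called ranged from 18 to 19 higher and 9 to 10 lower when each library was left out, and those of replacement genes stayed at 0 and 4. With no minimum fold, 8 replacement genes were lower. With a mean of at least 1 CPM, 4 replication-dependent genes were lower. The median log2 fold change of replication-dependent genes was less stable than the counts. It was 0.69 with at least 10 counts in every library, 0.65 with the replicate block, 0.67 with upper-quartile scaling and 0.86 with a mean of at least 1 CPM, and ranged from 0.28 (without parental library 3; 0.38 without parental library 1) to 0.71 when each library was left out. The median of replacement genes was -0.71 with library totals, -0.57 with upper-quartile scaling and -0.52 with H2AX counted as replication-dependent. The log2 ratio of the summed CPM became 1.01 for replication-dependent genes with upper-quartile scaling, and for replacement genes -0.91 with at least 10 counts, -0.97 with library totals and -0.83 with upper-quartile scaling. Upper-quartile scaling moved the median of all genes to 0.11. Over all genes, 6467 were lower with no minimum fold and 2326 with a fold of at least 2. For histone mRNA transcription and processing, 2 genes were higher and 22 lower with no minimum fold, and 3 were lower with a fold of at least 2. For chaperones these were 2 and 24 with no minimum fold, and no other variant (0) was higher with at least 10 counts in every library, since H3Y1 was not then tested. The replicate block (18 replication-dependent genes higher and 9 lower, 4 replacement genes lower) changed no other call named here. Apart from the alternatives' own construction, the causes were not tested. Counts of 3 libraries per line limit what can be seen below about 1 CPM.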
